A study of Mus musculus with 8 samples.

Results

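The transcriptome of control mouse embryonic stem cells (ESCs) was described from the control libraries of an RNA-seq series, 2 of the 8 libraries, which were chosen by their label. The other 6 libraries, in which Hira, Ubn1 or Ubn2 was knocked down, were not compared here. These genes encode subunits of the complex that deposits the histone variant H3.3. All cells were E14, an ESC line whose strain the labels spell 12910la, and the genotype of the control libraries is given as wild type. They grew without feeder cells on 0.2% gelatin, in 15% fetal bovine serum with 10 ng/ml of leukemia inhibitory factor (LIF). The treatment notes describe 1000 ng of the pSuper puro vector, then 1 µg/ml puromycin from 24 h onward for 3 days. For RNA-seq, the study calls its controls wild type, while its other assays name a control shRNA, so what vector these 2 libraries carried is not certain. Nothing in the labels says that replicate 1 and replicate 2 were separate cultures, so the spread given below may be technical.

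ESCs come from the inner cell mass of the blastocyst and can form every tissue of the embryo. They keep this state through a network of transcription factors around Oct4 (encoded by Pou5f1), Sox2 and Nanog. In serum and LIF, LIF receptors activate Stat3, serum factors act through BMP receptors, and Fgf4 made by the cells themselves pushes them toward differentiation. Cultures of this kind are known to be mixed, with some cells closer to the naive epiblast and some closer to a primed state, and bulk RNA cannot tell fewer expressing cells from less RNA in each cell.

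Reads counted on genes summed to 21174666 in replicate 1 and 32706053 in replicate 2. Levels are given as TPM, in which each count is divided by the exon length of the gene and the values of a library are scaled to a sum of 1000000, so that genes can be compared within a library. A gene is called expressed at 1 TPM or more in both libraries and silent at 3 counts or fewer in each, and low in between. At the median exon length of protein-coding genes, 3492 bases, 1 TPM corresponded to 30.9 counts in replicate 1 and 47.0 in replicate 2. A silent call is a limit set by depth, since 3 counts are 0.142 CPM (counts scaled to a library total of 1000000) in replicate 1 and 0.0917 in replicate 2. Genes shorter than 300 bases took 0.779% and 0.754% of the counts but 20.5% and 19.5% of the TPM, and protein-coding levels were 1.46 and 1.44 times higher when TPM was computed over nuclear protein-coding genes alone. That scaling leaves the order of genes within a library as it is.

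Of all 55418 genes in the tables, 16131 (29.1%) were expressed and 32723 (59.0%) were silent. Of 21955 protein-coding genes, 12380 (56.4%) were expressed, 3404 (15.5%) were low and 6171 (28.1%) were silent, of which 4718 had no count in either library. The median expressed protein-coding gene stood at 15.7 TPM. Most expressed protein-coding genes lay in the middle of the range, with 4664 at 1 to 10 TPM and 6623 at 10 to 100 TPM. Above these, 993 lay at 100 to 1000 TPM and 100 at over 1000 TPM. Protein-coding genes held 94.3% of the counts of replicate 1 and 94.5% of those of replicate 2. Among 10117 long non-coding RNA genes, 1862 (18.4%) were expressed, at a median of 6.70 TPM, and among 13496 pseudogenes 856 (6.34%) were. Counts were spread over many genes: the 10 highest held 5.99% and 6.07% of them, and 50% of the counts fell on 926 genes in replicate 1 and 936 in replicate 2.

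The plot of levels by rank places the named regulators on this range. The highest protein-coding gene was Eef1a1, the elongation factor that brings aminoacyl-tRNA to the ribosome, at 14640 TPM in replicate 1 and 15659 TPM in replicate 2. Other translation genes followed among the top 15, namely Rplp1, Rpl36, Rpl8, Rplp0, Rps15, Rps2 and Eef2. The rest of the top 15 were the mitochondrially encoded mt-Co1 and mt-Cytb, the chromatin-associated Ptma, the glycolytic Gapdh, the chaperone Hsp90ab1, the cytokine Mif and Dppa5a. Dppa5a, an RNA-binding protein restricted to pluripotent cells and germ cells, was the 5th highest protein-coding gene, at 4881 TPM and 4926 TPM, next to Rpl36 at 4750 TPM and 4765 TPM. Its place depends on the length used, since with the longest transcript it stood at a mean of 3896 TPM, below the glycolytic Pkm at 5189 TPM.

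**Figure D1:**
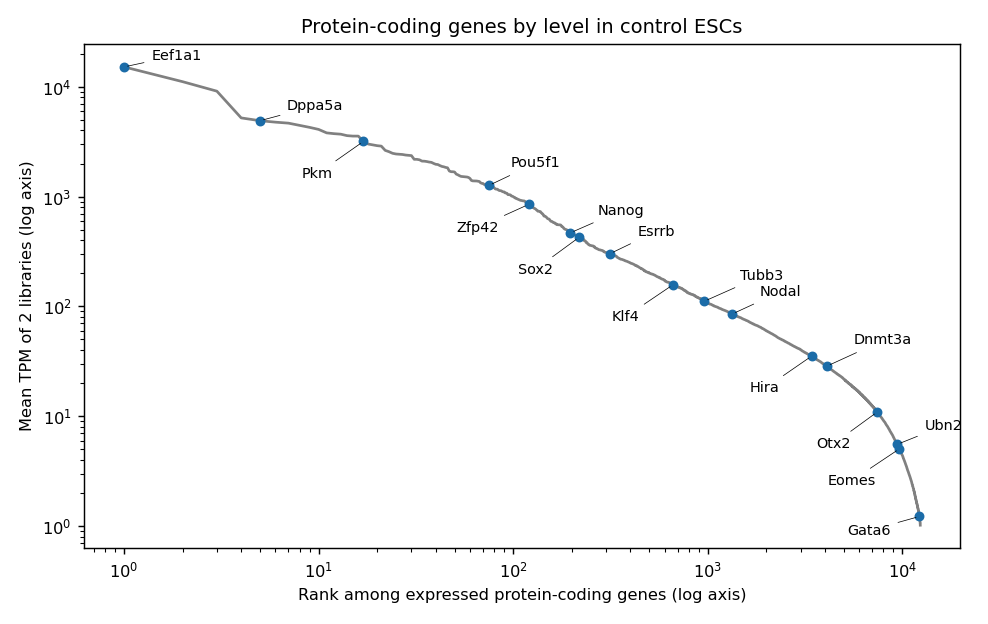
Mean TPM of the 2 control libraries (log axis) against rank among expressed protein-coding genes (log axis), with named genes as points. Dppa5a sits 5th, Pou5f1 75th and Zfp42 120th, Nanog and Sox2 lie close together at 468 and 425 TPM, and Hira and Ubn2 lie lower, at 35.2 and 5.56 TPM.

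The label of the cells was checked against 4 defining ESC markers, and all were high in both libraries. Pou5f1 stood at 1207 TPM in replicate 1 and 1318 TPM in replicate 2, a mean of 1262 ± 79.0 (SD, n = 2). Zfp42, a zinc finger protein also called Rex1 that marks naive cells, stood at 841 and 854 TPM. Nanog was at 489 TPM in replicate 1 and 447 TPM in replicate 2. Sox2, which binds DNA together with Oct4, was at 397 and 453 TPM. Pou5f1 was thus above Zfp42, and Zfp42 above Nanog and Sox2, in both libraries, while the ranges of Nanog and Sox2 overlapped. These genes ranked 75th, 120th, 197th and 219th among protein-coding genes.

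All 16 genes of the core pluripotency list were expressed, against 56.4% of all protein-coding genes. Of the 16, 11 stood at over 100 TPM, and the median was 391 TPM. After Dppa5a the highest was Tdgf1 at 1342 and 1417 TPM, the co-receptor (Cripto) through which Nodal signals. Utf1, a chromatin-bound cofactor of pluripotent cells, reached 588 and 677 TPM. Tdh, the threonine dehydrogenase on which mouse ESCs depend, reached 479 and 522 TPM. Between these and the foot of the list lay L1td1, Dppa4 and Fgf4, at means of 357, 186 and 174 TPM. The lowest members were Dppa2 at 50.1 and 47.4 TPM, a partner of Dppa4 at chromatin, and Gdf3 at 39.9 and 44.9 TPM, a ligand of the Nodal type, so the lowest of the 16 still stood above the median expressed gene. Lists of this kind were chosen with earlier results of these data known, and their counts are descriptions.

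Of 15 naive pluripotency genes, 14 were expressed (93.3%, against 56.4% of all protein-coding genes). Klf2, a factor that Mek-Erk signalling holds down, was the highest after Zfp42, at 386 and 441 TPM. Esrrb, an orphan nuclear receptor, followed at 289 and 316 TPM. Klf4 stood at 144 and 171 TPM and overlapped with Tcl1, a coactivator of Akt, at 155 and 157 TPM. Nr0b1, Klf5 and Tfcp2l1 lay at means of 127, 94.3 and 91.3 TPM, of which the last pair overlapped. Prdm14 and Tfap2c, factors shared with primordial germ cells, were lowest among those expressed, at 16.8 and 16.1 TPM on average. The 1 naive gene below the threshold was Dppa3 (Stella), a maternal factor that varies from cell to cell in serum, with 17 counts in replicate 1 and 12 in replicate 2, or 2.15 and 0.999 TPM.

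**Figure D2:**
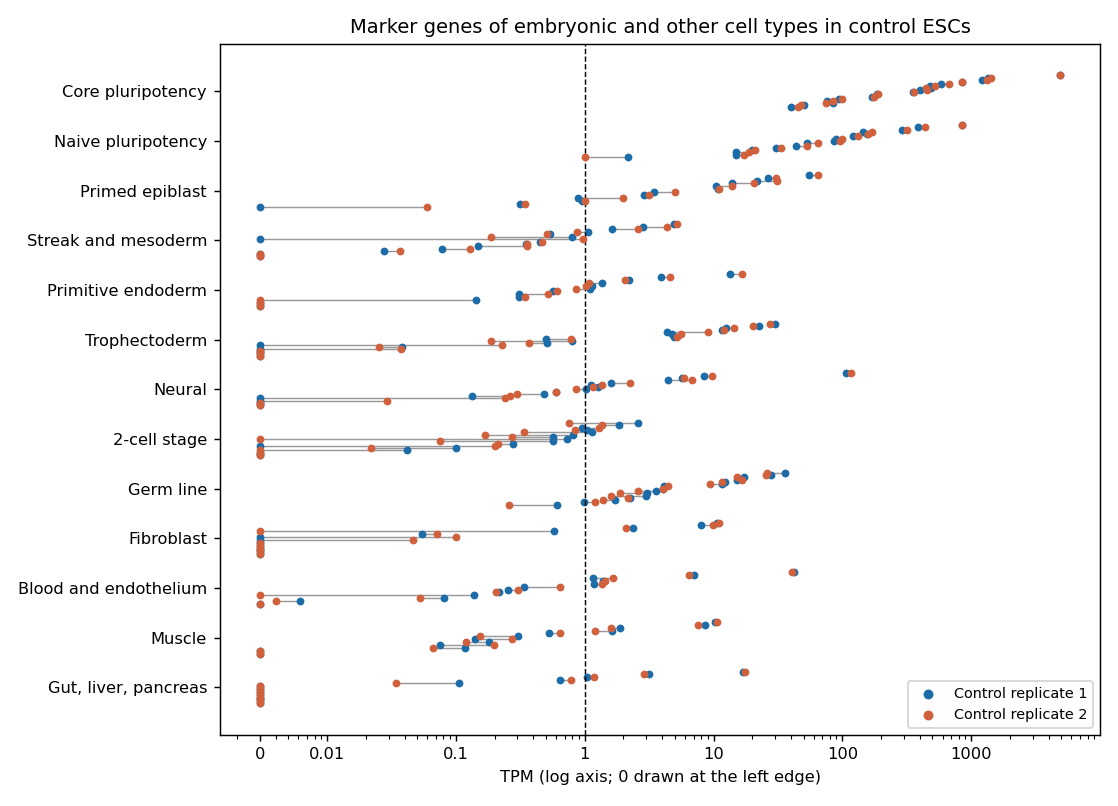
TPM (log axis, 0 at the left edge) of marker genes, grouped by list; each pair of joined points is 1 gene in control replicate 1 and replicate 2, and the dashed line at 1 TPM is the threshold for an expressed gene. All core pluripotency genes lie right of 10 TPM, 14 of 15 naive genes are expressed, and most streak, fibroblast, 2-cell and gut, liver and pancreas genes lie left of the line or at 0.

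Promoter sequence is a property that the calls of level do not use. CpG dinucleotides are depleted over most of the mouse genome and kept at the promoters of many genes, where they are usually unmethylated. Here the CpG ratio is the number of CpG in the 300 bases from 250 before to 50 after the RefSeq start (build GRCm38.p6), divided by the number that the C and G content would give, and a ratio of 0.6 or more is called CpG-rich. The 5 promoters printed show genes on both sides of the relation between CpG and level, with each CpG in capitals. Pou5f1 (chr17:35505782-35506081 on the plus strand) and Nanog (chr6:122707239-122707538 on the plus strand) were CpG-poor and expressed. Sox2 (chr3:34649745-34650044 on the plus strand) was CpG-rich and expressed. Lhx1, a homeodomain gene of the gastrulating embryo (chr11:84525485-84525784 on the minus strand), was CpG-rich and silent. Alb, the serum albumin gene of liver (chr5:90460620-90460919 on the plus strand), was CpG-poor and silent.
Pou5f1 promoter: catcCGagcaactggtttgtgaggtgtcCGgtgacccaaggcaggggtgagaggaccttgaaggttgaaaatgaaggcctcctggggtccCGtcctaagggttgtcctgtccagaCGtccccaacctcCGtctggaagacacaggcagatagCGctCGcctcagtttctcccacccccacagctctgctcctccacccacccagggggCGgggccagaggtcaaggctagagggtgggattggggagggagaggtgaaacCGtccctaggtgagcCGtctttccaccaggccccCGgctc
Nanog promoter: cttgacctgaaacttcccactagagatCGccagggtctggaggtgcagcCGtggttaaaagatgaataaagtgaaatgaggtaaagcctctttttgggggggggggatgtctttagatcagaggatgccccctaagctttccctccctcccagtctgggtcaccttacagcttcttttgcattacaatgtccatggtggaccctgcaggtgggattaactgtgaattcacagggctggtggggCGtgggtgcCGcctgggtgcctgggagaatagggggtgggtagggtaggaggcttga
Sox2 promoter: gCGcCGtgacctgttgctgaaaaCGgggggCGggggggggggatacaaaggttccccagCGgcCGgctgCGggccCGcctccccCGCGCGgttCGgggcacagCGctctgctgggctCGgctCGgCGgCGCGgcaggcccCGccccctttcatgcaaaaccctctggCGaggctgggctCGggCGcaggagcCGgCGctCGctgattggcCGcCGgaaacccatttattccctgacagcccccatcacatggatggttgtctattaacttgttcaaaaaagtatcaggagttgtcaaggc
Lhx1 promoter: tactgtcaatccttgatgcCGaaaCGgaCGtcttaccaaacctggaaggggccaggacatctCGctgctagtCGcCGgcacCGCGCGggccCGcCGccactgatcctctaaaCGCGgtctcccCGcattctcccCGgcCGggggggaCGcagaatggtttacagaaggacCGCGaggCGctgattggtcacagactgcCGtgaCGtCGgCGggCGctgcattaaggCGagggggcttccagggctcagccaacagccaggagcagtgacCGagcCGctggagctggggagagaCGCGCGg
Alb promoter: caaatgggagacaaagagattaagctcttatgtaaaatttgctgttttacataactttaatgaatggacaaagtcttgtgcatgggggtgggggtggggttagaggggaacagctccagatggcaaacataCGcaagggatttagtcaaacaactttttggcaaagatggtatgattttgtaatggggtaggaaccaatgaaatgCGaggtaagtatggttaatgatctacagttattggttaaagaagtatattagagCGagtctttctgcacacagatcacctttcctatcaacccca
They hold 11, 4, 27, 31 and 3 CpG, and their ratios are 0.37, 0.19, 0.82, 0.96 and 0.27, in the order printed. The RefSeq start of Sox2 lies 410 bases from the outermost GENCODE start of the gene, and that of Nanog on it.

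RefSeq promoters were matched for 16829 protein-coding genes, 76.7% of them. This is under the 80% needed to speak for all protein-coding genes, so the comparison by promoter is void for the classes as a whole and describes the matched genes only. Among these, 74.3% of 9744 expressed genes were CpG-rich, against 35.1% of 2501 low genes and 6.44% of 4584 silent genes. The first 200 bases of the longest transcript, which could be read for 99.4% of protein-coding genes, gave 70.3%, 39.1% and 9.47%. Read the other way, 89.4% of genes with a ratio of 0.8 or more were expressed and 2.42% were silent, while below 0.2 only 11.7% were expressed and 73.3% were silent. CpG-rich promoters also grew more common with level among expressed genes, from 62.2% at 1 to 10 TPM to 85.7% at 100 to 1000 TPM. No test was run on these shares, since neighbouring and duplicated genes are not independent.

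**Figure D3:**
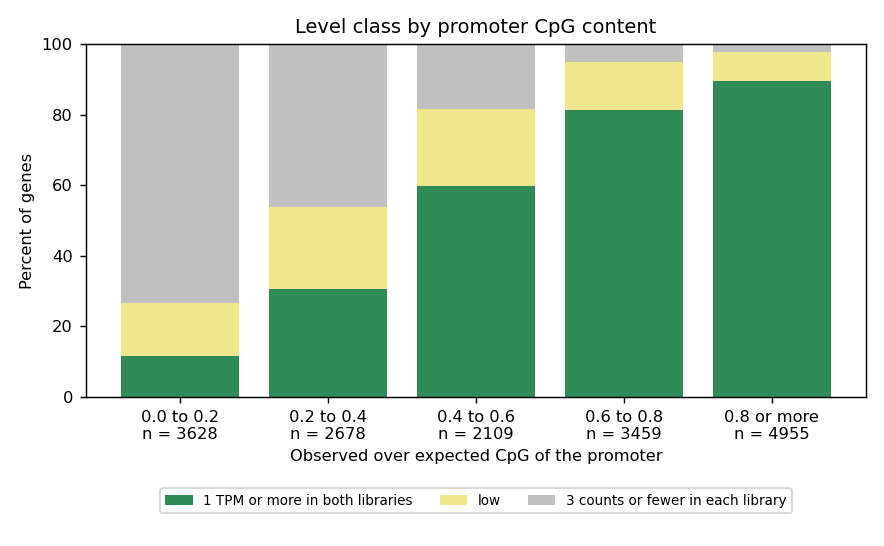
Percent of matched protein-coding genes that were expressed, low or silent in the control libraries, in bins of the CpG ratio of the promoter. The expressed share goes from 11.7% in the lowest bin to 89.4% in the highest, and the silent share from 73.3% to 2.42%.

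CpG-rich promoters were also counted by list. Of the 9 core pluripotency genes with a matched promoter, 3 were CpG-rich (33.3%), and of 10 naive genes 4 were, against 8414 of all 16829 matched genes. The same count was 16 of 17 for histone chaperone genes and 60 of 70 for ribosomal protein genes. Esrrb had a ratio of 0.27 and Lin28a, an RNA-binding protein that blocks let-7 maturation, 0.35. Among silent genes, 1201 olfactory and vomeronasal receptor genes had a median of 1.00 CpG in their promoters, and 5 of them (0.416%) were CpG-rich. Silent CpG-rich genes did occur: 295 in all, and 6 of the 28 silent genes with a promoter in 8 lists of lineage markers. These 6 were Gata3, Hand2, Lhx1, Olig2, Ptf1a and Twist2, all of which encode transcription factors of specific lineages.

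Short motifs were counted in the same windows. The letters TATAA on the strand of the gene, from 40 to 20 bases before the start, stood in 4.51% of all matched promoters, in 1.85% of expressed and in 9.90% of silent genes. Keratin-associated protein genes, which build hair and are all silent here, had them in 36 of 51 promoters (70.6%). GGGCGG on either strand, the core of the site for Sp1-type factors, which itself holds a CpG and so overlaps with the CpG count, stood in 66.7% of expressed and 10.6% of silent promoters and in 47.9% of all. CCAAT on either strand, with no CpG in it, stood in 39.5% and 39.7%, and in 39.0% of all. A match is a run of letters and no proof of a bound factor.

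Genes of the primed epiblast, the next stage after implantation, were partly present, with 8 of 12 expressed (66.7%, against 56.4% of all protein-coding genes). Otx2, a regulator of the exit from the naive state, was at 10.9 and 11.0 TPM. Fgf5, the classical marker of primed cells, was silent with 0 and 2 counts. The de novo methyltransferase Dnmt3b, which both states use, was at 26.6 and 30.8 TPM. Both Otx2 and Dnmt3b lay below the naive factors Klf2, Esrrb and Klf4 in both libraries.

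Markers of lineages that leave the pluripotent state were mostly low or silent. Of 14 streak and mesoderm genes, 3 were expressed, against 56.4% of all protein-coding genes. These were the T-box genes Eomes, at 4.95 and 5.16 TPM, and Tbx6, at 1.63 and 2.59 TPM, and the somite factor Mesp2, at 2.85 and 4.39 TPM. The defining streak gene T (Brachyury) had 11 and 16 counts, or 0.537 and 0.513 TPM. Hand2 and Cer1 had no count in either library. Summed over the list, the level was 12.9 TPM in replicate 1 and 16.0 TPM in replicate 2.

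In the primitive endoderm list, which covers a layer that ESCs rarely form, 5 of 12 genes (41.7%) were expressed, against 56.4% of all protein-coding genes. Lama1, a laminin chain of basement membranes, was at 13.5 and 16.6 TPM. The lineage factors Gata4 and Gata6 were just above the threshold, at 2.20 and 2.07 TPM and at 1.37 and 1.08 TPM. Sox17 was low at 0.308 and 0.342 TPM, and Afp and Ttr had no counts. In the trophectoderm list 7 of 16 (43.8%) were expressed, led by the keratins Krt8, at 29.9 and 27.3 TPM, and Krt18, at 22.5 and 20.2 TPM. The other 5 were the factors Tead4, at 12.4 and 14.3 TPM, Eomes, Ascl2 and Esx1 and the receptor Fgfr2, at 11.7 and 12.1 TPM. Eomes was at 4.95 and 5.16 TPM, Esx1 at 4.78 and 5.61 TPM and Ascl2 at 4.32 and 9.06 TPM. The factors Cdx2, Gata3 and Elf5 were near 0, with 0 and 7 counts, 0 and 2 counts, and 2 counts in each library. Tpbpa, Plac1 and Prl3d1, made by placental cells, had none.

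Of 15 neural genes, 7 were expressed (46.7%, against 56.4% of all protein-coding genes), and 1 of the 7 was high. This was Tubb3, a beta-tubulin widely used as a neuronal marker, at 107 and 116 TPM. The neural stem cell genes Nes and Sox1 were at 5.72 and 5.91 TPM and at 1.59 and 2.24 TPM. Pax6 was low, at 0.599 and 0.597 TPM (1.25 TPM on average with the longest transcript as length), and Neurog2 and Dcx, which mark neurons in formation, had no count. No other gene of the list reached 10 TPM in either library.

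Genes of the 2-cell embryo, which ESCs express in rare cells only, were at the edge of detection. Of 15, only Zscan4c was expressed (6.67%, against 56.4% of all protein-coding genes), at 1.84 and 1.37 TPM. Zscan4d differed between the libraries, with 52 counts in replicate 1 and 23 in replicate 2, or 2.59 and 0.752 TPM. Over the list the summed level was 10.6 TPM in replicate 1 and 5.54 TPM in replicate 2. With replicate 1 left out 2 of the 15 reached 1 TPM, and with replicate 2 left out 4 did. Zscan4 and Usp17l genes are near-identical copies, and reads that match several of them may have been lost or split, so these levels are uncertain.

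Germ line genes were widely present at modest levels, with 13 of 15 expressed (86.7%, against 56.4% of all protein-coding genes) and none over 100 TPM. Stra8, which starts meiosis in germ cells, was at 27.7 and 25.5 TPM. Ddx4, the germ cell helicase Vasa, was at 17.1 and 15.3 TPM. Dazl, an RNA-binding translation factor of germ cells, was at 11.6 and 9.35 TPM, and the piRNA factors Mael and Piwil2 lay at 15.1 and 16.7 TPM and at 12.2 and 11.6 TPM. The highest value, of Sycp3, at 35.8 and 25.9 TPM, is uncertain because 52.2% of its exon bases are shared with other genes, Chpt1 overlapping most.

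Markers of other cells that a dish could hold were checked in the same way, against the 56.4% of all protein-coding genes that were expressed. Of 12 fibroblast genes, 3 were expressed, namely Thy1, Pdgfrb and Col1a1. Col3a1, Dcn, Lum, Postn and Fap, which fibroblast feeder cells make in quantity, had 0 counts in both libraries, and Col1a1 was at 2.39 and 2.10 TPM. In the gut, liver and pancreas list 3 of 12 were expressed. Cdx1, a Wnt target, was at 16.9 and 17.6 TPM, while Alb, Ins2, Gcg, Ptf1a, Cyp3a11, Serpina1a and Tff3 had no count. Of 12 muscle genes 4 were expressed, with Des highest at 10.2 and 10.7 TPM, and Myf5 and Tbx5 had no count. In the blood and endothelium list 5 of 12 were expressed. Pecam1, an adhesion molecule that ESCs are known to carry, led it at 41.9 and 40.7 TPM, while Cdh5 had 3 counts in each library and Ptprc had 1.

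The genes of the chaperone complexes that the series depletes in its other libraries were all expressed here, 18 of 18 with the other histone chaperones. Of all protein-coding genes 56.4% were expressed. Hira, the scaffold subunit, was at 33.4 and 37.1 TPM, and 44.7% of its exon bases are shared with other genes, Gm28539 overlapping most. Cabin1 was at 23.7 TPM in each library. Ubn1 was at 14.9 and 12.6 TPM, and Ubn2, its paralog, at 5.42 and 5.69 TPM. These 4 subunits were apart from each other in both libraries, with Ubn2 at a rank of 9431 among protein-coding genes. Asf1b, which hands newly made histones to the assembly factors, stood at 69.7 and 68.9 TPM, above its paralog Asf1a at 17.9 and 20.1 TPM. H3.3 itself is encoded by H3f3b, at 391 and 427 TPM, and H3f3a, at 262 and 274 TPM. The ATRX and DAXX route to H3.3 deposition was present too, with Daxx at 45.5 and 51.6 TPM and Atrx at 14.9 and 13.9 TPM, or 24.3 TPM with the longest transcript as length.

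Repressors of retrotransposons were also all expressed, 20 of 20 against 56.4% of all protein-coding genes, and their median was 62.0 TPM. Trim28, the corepressor that KRAB zinc fingers recruit, was far above the others at 977 and 1089 TPM. Setdb1, the H3K9 methyltransferase it brings, was at 45.7 and 47.4 TPM. Zfp809, a zinc finger that finds the primer binding site of murine leukemia virus-like elements, was at 18.0 and 19.6 TPM. The lowest was Atf7ip, a partner of Setdb1, at 11.4 and 12.9 TPM, but with the longest transcript as length it stood at 24.9 TPM and was no longer the lowest. Zinc finger genes with a Zfp symbol were broadly on: 342 of 394 (86.8%) were expressed, with Zfp57, the guardian of imprints, at 292 and 310 TPM.

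Among 10 genes of DNA methylation and demethylation, 8 were expressed. Uhrf1, which brings Dnmt1 to replicated DNA, was at 291 and 299 TPM. Dnmt3l, the catalytically inactive partner of the de novo enzymes, was at 213 and 239 TPM. Dnmt1 followed at 129 and 135 TPM and Tet1 at 100 and 111 TPM. Dnmt3a, Dnmt3b and Tet2 overlapped with each other, between 26.6 and 30.8 TPM, while with the longest transcript as length Dnmt3a and Tet2 reached 39.1 and 41.9 TPM. Tet3, the oxidase of the zygote, was low at 0.609 and 0.867 TPM, and Dnmt3c, a methyltransferase of male germ cells, had 9 and 6 counts.

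Polycomb genes, which keep developmental genes off, were expressed in 25 of 27 cases (92.6%, against 56.4% of all protein-coding genes). Of the PRC2 core, Eed was at 110 and 112 TPM, Suz12 at 89.0 and 88.9 TPM and the methyltransferase Ezh2 at 48.6 and 53.5 TPM. With the longest transcript as length Ezh2 stood at 97.2 TPM, above Suz12. Ezh1, its paralog in resting tissues, was lower, at 17.4 and 21.8 TPM. Among the Cbx readers of PRC1, Cbx7 was highest at 87.3 and 89.9 TPM, while Cbx8 was low at 0.492 and 0.343 TPM. Of the PRC1 scaffold paralogs, Pcgf2, at 57.6 and 58.6 TPM, was above Bmi1, at 3.16 and 2.67 TPM.

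Signalling genes were grouped by pathway, 49 of 57 being expressed (86.0%, against 56.4% of all protein-coding genes). In the LIF pathway, the receptor chains Lifr and Il6st stood at 21.1 and 23.4 TPM and at 21.2 and 22.1 TPM. Stat3, which they activate, was at 30.3 and 33.1 TPM. The feedback inhibitor Socs3, a direct Stat3 target, was at 274 TPM in replicate 1 and 189 TPM in replicate 2. Lif itself was near the threshold at 1.79 and 2.20 TPM. Socs3 was thus the highest gene of the pathway in both libraries and also the one with the widest gap between them.

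In the FGF pathway the ligand Fgf4 was at 171 and 176 TPM and its main receptor Fgfr1 at 22.1 and 24.9 TPM, or 36.6 TPM with the longest transcript as length. Genes that Erk signalling switches on were among the highest, with Etv5 at 231 and 268 TPM and Spry4 at 146 and 135 TPM. In the Nodal pathway the ligand Nodal was at 82.5 and 88.1 TPM, and its targets and antagonists Lefty2 and Lefty1 at 58.0 and 46.9 TPM and at 44.3 and 32.4 TPM. The type I receptor Acvr1b was expressed, at 35.7 and 40.9 TPM, while Acvr1c had 1 count in each library. In the BMP pathway the target Id1 was at 188 and 147 TPM, Id3 at 11.1 and 16.7 TPM and the ligand Bmp4 at 38.5 and 38.7 TPM.

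In the Wnt pathway effectors were on except Lef1, which was low at 0.887 and 1.99 TPM (2.75 TPM on average with the longest transcript as length). Tcf7l2 was near the threshold, at 1.08 and 1.25 TPM, and Tcf7 was at 44.8 and 49.2 TPM. The ligands of the primitive streak were low. Ctnnb1, beta-catenin, was at 474 and 457 TPM. The repressor Tcf7l1, also called Tcf3, was at 11.2 and 13.5 TPM, and the feedback target Axin2 at 5.81 and 8.24 TPM. Wnt3, Wnt3a and Wnt8a were low, with 2 to 16 counts in any library. Over the whole family 4 of 19 Wnt ligands were expressed (21.1%, against 56.4% of all protein-coding genes), led by Wnt6 at 6.19 and 5.32 TPM.

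**Figure D4:**
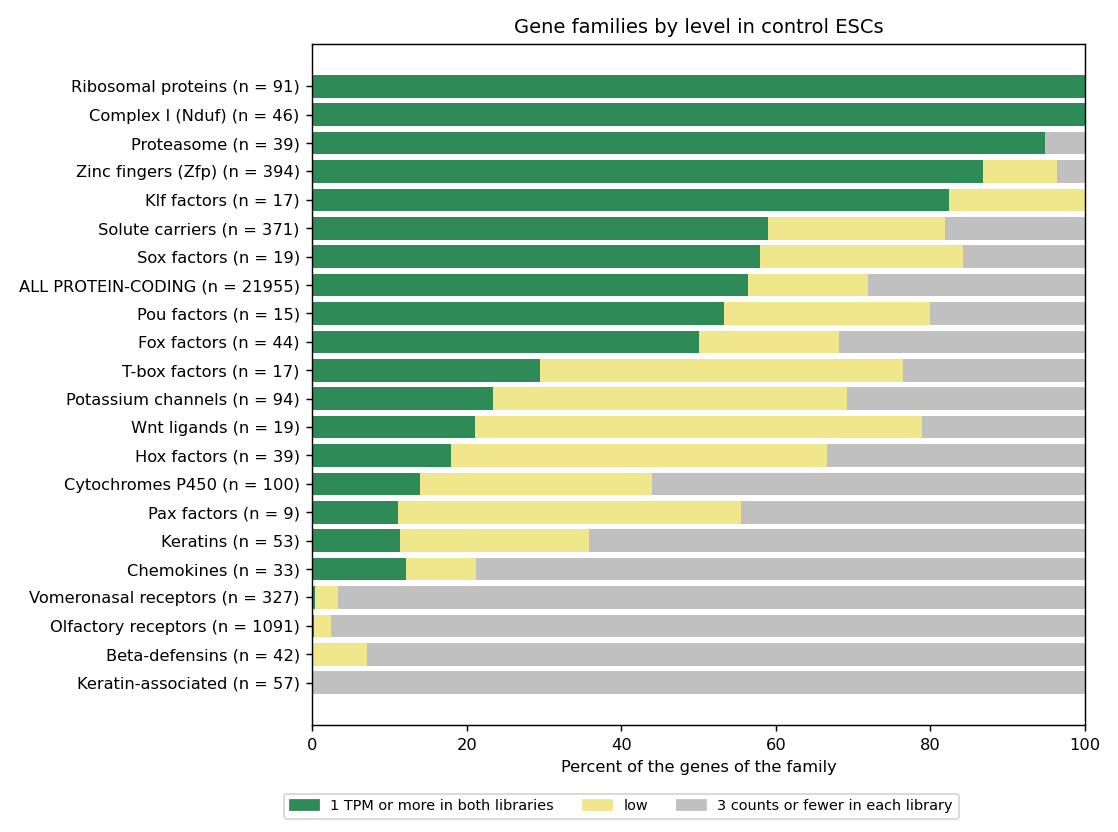
Percent of the genes of 22 sets, all protein-coding genes among them, that reached 1 TPM in both control libraries, were low, or had 3 counts or fewer in each. All protein-coding genes are 56.4% expressed and 28.1% silent, ribosomal proteins 100% expressed, and olfactory receptors 97.6% silent.

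Families that every cell needs were on almost without exception. All 91 ribosomal protein genes, all 78 mitochondrial ribosomal protein genes and all 46 complex I genes were expressed, against 56.4% of all protein-coding genes. The ribosomal proteins took 9.11% of the counts of replicate 1 and 8.77% of those of replicate 2. Of 39 proteasome genes 37 were expressed, and of 55 translation initiation factor genes 54. The 13 mitochondrially encoded protein genes took 1.14% and 1.07% of the counts.

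Transcription factor families differed in how much of each was on, set against the 56.4% of all protein-coding genes that were expressed. Klf genes lay above this share, Sox and Fox genes near it, and Hox and Pax genes below it. Of 17 Klf genes 14 were expressed and 0 were silent. Of 19 Sox genes 11 were expressed, and after Sox2 came Sox12, at 24.4 and 34.3 TPM, and Sox15, at 20.9 and 25.3 TPM. Of 44 Fox genes 22 were expressed, led by Foxh1 at 55.4 and 50.5 TPM, the cofactor of Smads in the Nodal response. Homeotic genes were at the other end, with 7 of 39 Hox genes expressed, 19 low and 13 silent. The highest Hox gene was Hoxc12 at 4.27 and 5.98 TPM, and the Hox genes together took 0.00210% and 0.00187% of the counts. Of 9 Pax genes, Pax8 alone was expressed, at 1.30 and 2.16 TPM, and with the longest transcript as length or with 1 CPM as threshold 2 were.

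Receptors and proteins of the sense organs, skin and body fluids were largely silent as families, set against the 28.1% of all protein-coding genes that were silent. Of 1091 olfactory receptor genes 1065 (97.6%) were silent and 2 were expressed, Olfr985 at 2.47 and 1.74 TPM and Olfr814 at 1.04 and 1.07 TPM. With the longest transcript as length 1 was expressed. In the vomeronasal receptors 316 of 327 (96.6%) were silent. The exception was Vmn1r53, a receptor for pheromones, at 6.65 and 7.48 TPM from 66 and 113 counts. All 57 keratin-associated genes and 39 of 42 beta-defensin genes were silent, and 26 of 33 chemokine genes were. Keratins were mixed, with 34 of 53 silent and Krt8, Krt18 and Krt19 on. A pattern by symbol for interferon genes matched 20, of which 18 ligand genes were silent and the 2 expressed were the receptor genes Ifnar1 and Ifnar2.

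Silent genes lay in long runs along the chromosomes. The longest run of neighbouring silent protein-coding genes held 236 genes on chromosome 2, at chr2:85136225-90403897 (GRCm38), of which 227 were olfactory receptors. On chromosome Y a run of 175 reached from Usp9y to Gm21860, at chrY:1298961-90754821. Reads with several matches may have been lost, so silent calls among gene copies in such a run are uncertain. A run of 103 on chromosome 7, from 20099680 to 24063554, held 65 vomeronasal receptors. On chromosome 8, a run of 62 genes reached from Defb40 to Defb13, both beta-defensin genes. Expressed runs were shorter. The longest held 44 genes over 903 kb on chromosome 8, from 69706332 to 70608872, between Zfp869 and Ssbp4, with a median of 27.2 TPM. Next came 32 genes on chromosome 5, from 121518576 to 123030456, with a median of 15.8 TPM.

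Metabolic genes with several isoforms were dominated by particular members. Among pyruvate kinases Pkm was at 3101 and 3250 TPM and Pklr, the liver and red cell form, at 1.26 and 1.47 TPM. Among enolases Eno1 was at 1803 and 1881 TPM, above the muscle form Eno3 at 25.5 and 26.9 TPM and the neuronal form Eno2 at 5.69 and 6.37 TPM. With the longest transcript as length, Eno1 stood at 3884 TPM on average and Pkm at 5189 TPM. Pgk1 stood at 2166 and 2032 TPM and Pgk2, its testis copy, had no count. Lactate dehydrogenase was shared, with Ldha at 1608 and 1739 TPM and Ldhb at 695 and 633 TPM. Of the glucose transporters 2 were high, Slc2a1 at 809 and 856 TPM and Slc2a3 at 585 and 604 TPM, whereas Slc2a4 and Slc2a2, of muscle and liver, were at 2.73 and 3.24 TPM and at 5 and 0 counts. Hk2 and Hk1 were both on, at 78.8 and 96.5 TPM and at 36.0 and 42.3 TPM, and Hk1 stood at 62.1 TPM with the longest transcript as length. Aldoa has a symbol that matches more than 1 annotated gene and gets no TPM; its row held 52161 and 83260 counts.

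Cell cycle genes were expressed in 24 of 25 cases (96.0%, against 56.4% of all protein-coding genes). The G1 cyclins Ccne1 and Ccnd3 were at 159 and 171 TPM and at 77.3 and 80.1 TPM. Ccnd1 was at 43.6 and 49.2 TPM and Ccne2 at 9.38 and 9.86 TPM, while Ccnd2 was at 2.17 and 3.55 TPM. Ccnd3 stood at 142 TPM with the longest transcript as length. Cdk4 was at 305 and 311 TPM and Cdk6 at 3.74 and 4.68 TPM. Of the inhibitors Cdkn1a (p21) was highest, at 42.7 and 42.4 TPM, and Cdkn2c was low with 10 and 35 counts. Trp53, which encodes p53, was at 152 and 162 TPM. Among these cyclins and among these kinases the order was the same in both libraries.

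Of 19 adhesion genes of epithelia and mesenchyme 15 were expressed (78.9%, against 56.4% of all protein-coding genes). Cdh1, E-cadherin, was at 149 and 157 TPM, and Cdh2, N-cadherin, at 0.953 and 1.01 TPM, just under the threshold in replicate 1 and at 1.30 TPM with the longest transcript as length. Epcam was at 74.6 and 70.8 TPM. The mesenchymal genes Fn1 and Vim were at 287 and 292 TPM and at 96.2 and 114 TPM. Zeb1 was at 4.38 and 5.73 TPM, Twist1 at 4.37 and 3.19 TPM and Snai1 at 2.86 and 2.98 TPM, while Snai2 and Zeb2 were low. Of the epithelial genes, Esrp1 alone was low, at 0.806 and 0.907 TPM. Clustered protocadherins were counted by cluster. All 21 gamma genes were expressed and had nearly the same count, from 1181 to 1328 in replicate 1 and from 1948 to 2193 in replicate 2, and their transcripts end in shared exons. The 12 alpha genes, with 48.6% to 93.0% of their exon bases shared, were all low, with 21 to 26 counts in replicate 1 and 14 to 20 in replicate 2. Of the 22 beta genes, with 0% to 63.5% shared, 0 were expressed, 14 were low and 8 were silent.

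In the annotation used here 1188 genes share all their exon bases with other genes, and 649 of them had over 3 counts in both libraries. Sharing was taken over both strands and over all other genes together, and a partner named is the gene with the largest overlap. Of the 8 highest long non-coding RNA genes, 7 share exon bases with another gene. Gm19553, at 2891 and 3029 TPM, shares 64.2% of its exon bases with other genes. Its largest overlap is with Pou5f1 on the other strand. Gm28037 shares all of its exon bases, and its largest overlap is with Rpl24. Strand was not stated for the counting, so reads of these genes and of their partners cannot be told apart. Gm27597 and Mir5121, short miRNA genes inside the ribosomal protein genes Rpl19 and Rpl13a, head the table by TPM for their length of 80 and 74 bases.

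E14 cells carry a Y chromosome. Of 183 protein-coding genes on it 5 were expressed (2.73%, against 56.4% of all protein-coding genes), the highest being Gm47283 at 348 and 307 TPM. Eif2s3y, a translation factor subunit, was at 41.8 and 33.1 TPM. Ddx3y, an RNA helicase, was at 30.1 and 25.6 TPM, and Uty, a paralog of the demethylase Kdm6a, at 6.09 and 5.50 TPM. Kdm5d, a demethylase gene at chrY:897788-956786 (GRCm38) between the expressed genes Uba1y and Eif2s3y, had 1 count in replicate 1 and 7 in replicate 2, or 0.00745 and 0.0343 TPM (0.0315 TPM on average with the longest transcript as length). Its X-linked paralog Kdm5c was at 59.8 and 66.2 TPM. Xist, the RNA of the inactive X, was at 1.18 and 1.56 TPM and its antisense Tsix at 2.64 and 3.87 TPM. Of the exon bases of Tsix 32.6% are shared with other genes, Xist overlapping most.

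Of 10 commonly used reference genes, 9 were expressed, from Gusb at 13.3 and 14.5 TPM to Eef1a1. Actb, cytoplasmic beta-actin, was at 1224 and 1228 TPM, and Tbp at 17.1 and 16.0 TPM. Hprt, a purine salvage enzyme on the X chromosome, was the exception, with 6 counts in replicate 1 and 20 in replicate 2, or 0.526 and 1.15 TPM. Its promoter is CpG-rich, with 22 CpG and a ratio of 0.84. E14TG2a, a subline of E14, is known to lack part of Hprt; the labels name E14 only, and which subline was used was not tested.

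The libraries agreed over most of the range. Across 23631 genes with a count in both, log2 TPM had a Pearson correlation of 0.977 and a Spearman correlation of 0.986, which describe genes of 2 libraries and not replicates. The spread between the libraries fell with level. The median coefficient of variation was 9.38% for genes at 1 to 10 TPM, 4.66% at 10 to 100 TPM and 3.54% at 100 to 1000 TPM. Of 15168 expressed genes of 300 bases or more, 696 (4.59%) differed by over 1.5-fold, of which 644 lay under 10 TPM. Among genes with at least 10 counts in each library the common biological coefficient of variation estimated by edgeR was 7.09%.

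Genes apart from the diagonal were of several kinds. Higher in replicate 1 were the short structural RNAs Rn7sk, with 42 counts against 16, and Rpph1, the RNase P RNA, with 179 against 83. Lars2, mitochondrial leucyl-tRNA synthetase, was at 88.9 TPM in replicate 1 and 40.9 TPM in replicate 2. Ier3, an early response gene, was at 52.1 and 26.5 TPM. AY036118 and Gm42418, which overlap on chromosome 17 where the mouse assembly holds a copy of the ribosomal RNA precursor, stood at 2961 and 1773 TPM and at 1795 and 1186 TPM. Of the 8 genes with the largest ratios toward replicate 1, Gm13453, Gm9806, Gm6712 and Rps24-ps3 were pseudogenes or non-coding genes too. Gm23935, a miRNA gene of 57 bases and thus short of the 300-base limit set for ratios, stood at 18110 and 6414 TPM. The 8 genes with the largest ratios toward replicate 2 were all non-coding genes or pseudogenes, the highest of them Gm28438 at 66.5 and 121 TPM. Whether ribosomal RNA content or handling moved these genes was not tested.

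**Figure D5:**
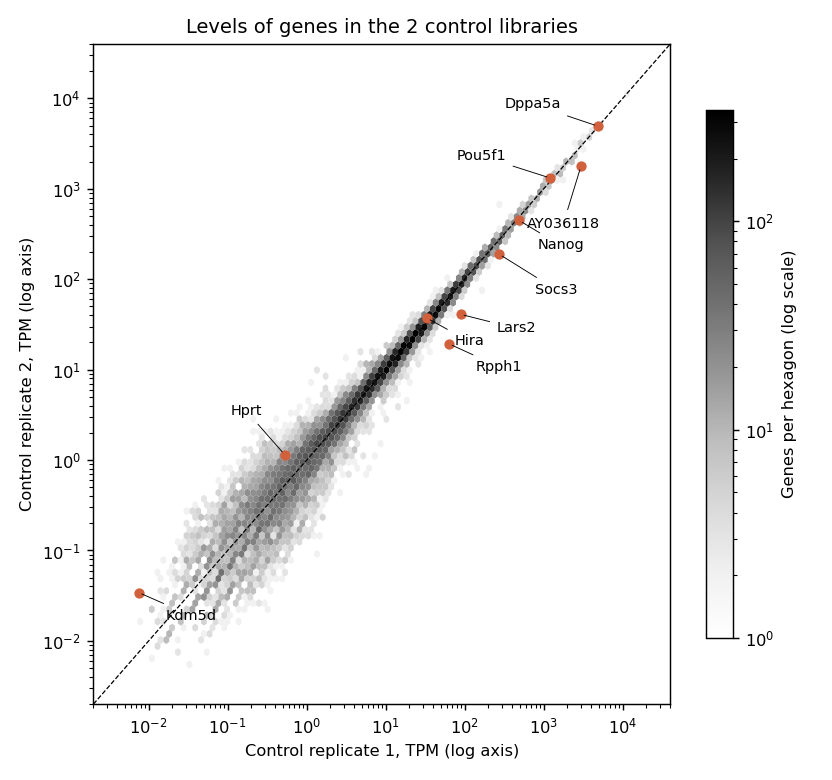
TPM of each gene with a count in both libraries, control replicate 2 against replicate 1 (log axes), shaded by the number of genes per hexagon, with named genes as points. Pou5f1, Nanog and Dppa5a lie on the diagonal, while AY036118, Lars2, Rpph1 and Socs3 lie toward replicate 1, and Hprt and Kdm5d sit at the low end.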

How the data were processed

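Of the 8 libraries, the 2 labelled as controls were used, mapped by title. Per the labels, total RNA went into mRNA libraries that were sequenced in pairs, and the authors' processing notes name Trim Galore, STAR, featureCounts and the build GRCm38. Versions, strand setting and the treatment of reads with several matches are not given in the sources used here. The values are raw read counts per gene, deposited by the authors in 3 tables of 55418 symbols, whose control counts were identical (0 differing values). Every column was mapped to a sample.

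TPM was computed from counts and the union of exons in GENCODE M21. Of the symbols, 55303 matched 1 gene and 115 matched more, and these 115, with 0.423% and 0.432% of the counts, got no TPM. Intervals of counts are not given, and the floor of 3 counts covers counting error only. Software was Python 3.11.15, pandas 2.3.3, numpy 2.4.6, matplotlib 3.10.9, R 4.3.3, edgeR 4.0.16 (common dispersion and TMM factors) and DESeq2 1.42.0 (size factors). Level calls and dispersion were tested on simulated data. With 1 group there was no test and no comparison of groups.

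The 27 lists of 458 genes, the 47 families and the promoters printed were chosen with earlier results of these data known. Genes named are list members, the top 15 protein-coding, 8 long non-coding and 5 other genes, the top 3 of each family with any expressed member of a family under 10% expressed, the 8 largest ratios between libraries in each direction (of genes at 10 TPM or more in a library, with a minimum of 300 bases that was added to the rule), and the longest runs. The gamma and beta protocadherins as groups, Gm47283 and Uba1y were described after their values were seen. Promoters are those of RefSeq on GRCm38.p6, matched by symbol or older symbol, and the start nearest to that of GENCODE was taken. Some list members are not reported here.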

Additional observations from a re-analysis of the deposited data

How the results depend on the processing

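No paired analysis was possible because there is 1 group of 2 libraries. The number of expressed genes lay between 11584 (at 5 TPM) and 17824 (at 0.5 TPM). Other thresholds, lengths, scalings, thinning of the deeper library or leaving out a library did not move this count by over 1.5 times. Silent calls use raw counts only, so thresholds, lengths and scalings could not change their number of 32723. It was 33579 with the deeper library thinned, 33429 without replicate 1 and 34752 without replicate 2. The low class, 6449 genes, held 10996 at 5 TPM, 5038 without replicate 1 and 3975 without replicate 2. With 1 CPM as threshold, 1546 genes left the expressed class and 742 entered it. Measured as a share of TPM, protein-coding genes held 71.0% in place of 94.4%, small RNA genes 18.0% in place of 0.819%, and the top 10 genes 14.0% in place of 6.03%, which follows from dividing by length. Over genes that share no exon base, an alternative added after seeing the data, protein-coding genes held 97.8% of counts and small RNA genes 0.143%. Of 296 recomputed list and family counts 12 moved by over 1.5 times, among them clustered histones (14 expressed at 1 CPM) and collagens (27), the rest being counts of 5 or fewer. With the longest transcript as length, 35 of 425 list genes moved by over 1.5 times. The first 200 bases of transcripts, also added after seeing the data, left the order of the classes by CpG as it was. Depth limits silent calls to 3 counts, and 1736 genes had counts in replicate 1 alone and 3000 in replicate 2 alone.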

Other observations

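Imprinted genes, which are expressed from the copy of a given parent, were on in 16 of 20 cases. The list also holds non-coding genes, and of all protein-coding genes 56.4% were expressed. Snrpn was highest, at 176 and 195 TPM, with 34.1% of its exon bases shared with other genes, Gm38393 overlapping most. Next came Peg10, derived from a retrotransposon, at 146 and 157 TPM. The non-coding Meg3, at 42.7 and 40.6 TPM, and Rian, at 56.3 and 51.4 TPM (96.5 TPM with the longest transcript as length), of the Dlk1 cluster stood above Dlk1 itself, at 2.02 and 2.51 TPM. H19 was at 31.8 and 30.7 TPM, while its neighbour Igf2 was low at 0.790 and 0.934 TPM. Of the exon bases of Igf2 64.5% are shared with other genes, Gm49394 overlapping most. Airn had no count. Of all long non-coding RNA genes 18.4% were expressed. In a list of 19 non-coding genes, which also holds Meg3, H19 and the miRNA gene Mir290a, 17 were expressed (89.5%). Lncenc1, an ESC transcript, led it at 218 and 203 TPM, while Hotair had no count. Mir290a was called expressed from 4 and 12 counts, with 69.9% of its exon bases shared with other genes, Mir290b overlapping most.

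Telomere genes were on in 11 of 11 cases, against 56.4% of all protein-coding genes. Dkc1, the pseudouridine synthase of telomerase, was at 161 and 138 TPM and Tert at 10.9 and 13.1 TPM. Of 23 innate immunity and antigen presentation genes 14 were expressed (60.9%, against 56.4% of all protein-coding genes). The class I genes H2-K1 and B2m were at 60.5 and 59.6 TPM and at 49.7 and 49.5 TPM, while the interferon-induced Isg15 and Ifit1 had 2 and 0 counts and 0 and 2 counts. Ifnb1 and Tlr4 had none.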
